A study of Mus musculus with 6 samples.

Results

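The transforming growth factor beta (TGF-beta) genes of the mouse bladder mucosa were followed in single-cell RNA sequencing data across cell types and after injury by cyclophosphamide (CPP). They were a fixed list of 9 genes out of the 14355 genes used, matched by Ensembl identifier, and all 9 were found in every library. The list holds the ligands Tgfb1, Tgfb2 and Tgfb3, the receptors Tgfbr1, Tgfbr2 and Tgfbr3, the latency protein Ltbp4, the target Tgfbi and the inhibitor Smad7. Each library was prepared from the mucosal layer of bladders of wild type C57BL/6 mice aged 8 weeks, and 2 libraries were made in each of 3 conditions. The labels of the healthy libraries name no CPP, and whether these mice were given the vehicle was not stated. Acutely injured mice were collected 48 h after a single intraperitoneal injection of CPP, and chronically injured mice on day 11, after 4 rounds of it. By the study's methods, this was also 48 h after the last round. Several mice were used per condition, and how many entered each library was not stated, so the p-values measure the spread between libraries.

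CPP is a chemotherapeutic drug whose metabolites reach the urine and damage the urothelium, the layered lining of the bladder with basal, intermediate and superficial cells. TGF-beta ligands are secreted in a latent form, bound to their own propeptide and to a latent TGF-beta binding protein such as Ltbp4, and are activated by integrins, proteases and matrix proteins. The active ligand binds the type II receptor Tgfbr2, which recruits and phosphorylates the type I receptor Tgfbr1, while Tgfbr3 (betaglycan) presents ligand, Tgfb2 in particular, to them. Tgfbr1 then phosphorylates Smad2 and Smad3, which enter the nucleus with Smad4. Smad7 is induced by the pathway and blocks Tgfbr1, and Tgfbi encodes a secreted matrix protein that is induced by TGF-beta in many cells. In connective tissue the pathway is known for driving matrix production and the myofibroblast state, and in epithelia for restraining proliferation.

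The libraries held 5348 to 15062 cell barcodes, 54604109 to 111985678 unique molecular identifiers (UMIs) and 5530 to 9138 UMIs in the median cell. Pairs of libraries shared 36 to 229 barcodes, at most 2.28% of the smaller library. Cells were clustered on features from which the TGF-beta genes and other pathway genes had been removed. The named classes were 35247 urothelial cells (2182 of them cycling), 5362 fibroblasts, 4133 myofibroblasts, 929 macrophages, 485 endothelial cells, 366 natural killer (NK) and T cells and 177 mural cells. The cluster named macrophage had a mean marker z-score of 4.24 for macrophage and 4.239 for MHC class II dendritic markers. Cd74 and H2-Aa stood beside C1qa among its leading genes, so this class did not separate macrophages from other MHC class II cells. None of the 10 urothelial, 8 mesenchymal, 6 fibroblast, 5 myofibroblast and 7 macrophage markers found was at 0 in its own class in any library used. Chronic library 2 stood apart among fibroblasts, with 24 cells there against 323 to 1620 elsewhere. Its fibroblast sum also held 2720 CPM (UMIs of a gene or list per 1000000 UMIs of the class in that library) from 4 markers of MHC class II cells, against 15.4 to 111 in the other libraries, and 770 from 7 macrophage markers, against 28.1 to 63.7. All levels are such shares of the UMIs summed over the cells of a class in a library. The assay reads the 3' ends of transcripts, so a gene's level was compared between classes and conditions and not with the level of another gene.

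The promoters of 4 of the genes are shown as examples of the patterns described next, Tgfb1 being measured in every class, Tgfb2 and Ltbp4 mainly in mesenchymal cells, and Tgfbi mainly in myofibroblasts and macrophages. Each line holds the 250 bases before the RefSeq transcription start on the GRCm38.p6 build, read along the gene's strand, and capitals mark 3 letter strings on either strand. The GC box was searched as GGGCGG. The TATA box was searched as TATAAA. The Smad binding element was searched as CAGACA. Of the 9 genes, 6 had an entry in the RefSeq promoter table. The Tgfbi and Ltbp4 windows reach into the GENCODE M21 gene, whose annotated start lies further upstream, and Ltbp4 is shown at the most upstream of its 3 RefSeq starts.
Tgfb1, chr7:25686752-25687001, plus strand: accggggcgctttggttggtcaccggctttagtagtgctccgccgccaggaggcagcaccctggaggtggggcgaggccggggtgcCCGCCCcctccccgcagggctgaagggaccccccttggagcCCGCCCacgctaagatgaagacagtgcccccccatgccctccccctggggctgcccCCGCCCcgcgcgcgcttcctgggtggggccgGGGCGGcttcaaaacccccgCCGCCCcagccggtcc
Tgfb2, chr1:186705990-186706239, minus strand: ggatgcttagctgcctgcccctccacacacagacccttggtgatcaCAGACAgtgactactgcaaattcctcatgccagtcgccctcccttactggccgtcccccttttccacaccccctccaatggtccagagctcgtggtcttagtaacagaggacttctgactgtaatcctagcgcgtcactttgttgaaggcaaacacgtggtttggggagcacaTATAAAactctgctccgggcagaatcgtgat
Tgfbi, chr13:56609336-56609585, plus strand: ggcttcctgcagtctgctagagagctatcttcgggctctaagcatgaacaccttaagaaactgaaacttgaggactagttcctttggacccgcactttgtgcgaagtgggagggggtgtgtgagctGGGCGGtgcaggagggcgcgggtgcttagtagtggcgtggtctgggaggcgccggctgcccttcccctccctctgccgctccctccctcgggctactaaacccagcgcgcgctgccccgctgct
Ltbp4, chr7:27337613-27337862, minus strand: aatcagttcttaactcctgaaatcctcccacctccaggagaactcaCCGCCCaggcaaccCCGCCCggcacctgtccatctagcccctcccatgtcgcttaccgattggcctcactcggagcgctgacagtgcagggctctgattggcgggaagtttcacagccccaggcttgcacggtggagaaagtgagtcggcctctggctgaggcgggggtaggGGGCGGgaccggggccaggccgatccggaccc

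The Tgfb1 window had a GC content of 75.2% and held the GC box 5 times and no TATA box. The Tgfb2 window had a GC content of 53.6%, no GC box, a TATA box at position -31 and a Smad binding element at position -204, counted from the start. The Tgfbi window (GC content 62.4%) held the GC box at position -124 and the Ltbp4 window (64.4%) held it 3 times, both without the other strings. Over all 32851 promoter entries the median GC content was 52.4%, and the GC box stood in 32.7%, the TATA box in 12.4% and the Smad binding element in 17.1% of the windows. The longer palindrome GTCTAGAC, bound by Smad3 and Smad4, stood in 0.167% of them and in no window of these genes. A match describes letters and not a bound site. On GRCm38 (GENCODE M21) 4 of the genes without a printed promoter lie at chr12:86056745-86079041 (Tgfb3), chr4:47353222-47414931 (Tgfbr1), chr9:116084293-116175360 (Tgfbr2) and chr5:107106570-107289629 (Tgfbr3).

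Among the ligands, Tgfb1, the isoform best known from immune cells and platelets, was measured in every class. Its levels in macrophages were 368 and 270 CPM in the healthy, 340 and 283 CPM in the acute and 243 and 291 CPM in the chronic libraries. Urothelial cells held 145 and 142, 126 and 141, and 132 and 130 CPM in the same order, fibroblasts 47.3 and 67.3, 58.9 and 69.5, and 74.0 and 48.1 CPM. Macrophages were thus above urothelial cells, and urothelial cells above fibroblasts, in each of the 6 libraries. NK and T cells (mean 239 CPM ± 69.4, SD, n = 3) overlapped with macrophages (299 ± 46.4, n = 6) and with endothelial cells (200 ± 54.2, n = 5) in range. Urothelial cells (136 ± 7.55, n = 6) and myofibroblasts (121 ± 11.6, n = 6) also overlapped, with urothelial cells higher in 5 of 6 libraries.

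Tgfb2, an isoform that needs Tgfbr3 for strong binding, was low outside the mesenchymal, mural and endothelial classes. Fibroblasts held 45.3 and 37.6 CPM in the healthy, 61.6 and 34.0 CPM in the acute and 64.1 and 36.1 CPM in the chronic libraries, the last from 3 UMIs. Myofibroblasts held 26.0 and 9.31, 26.5 and 10.9, and 34.5 and 15.03 CPM, below fibroblasts in every library. In chronic library 2 both values rest on few UMIs, from 85 myofibroblasts and 24 fibroblasts, so the order there is not firm. Urothelial cells held between 0.432 and 1.22 CPM, and macrophages gave 7 UMIs over all 6 libraries. Endothelial cells held 52.9 CPM in healthy library 1, 30.7 and 16.3 CPM in the acute libraries and no UMI in either chronic library, where 3 UMIs would have been 41.6 and 29.3 CPM. The mural cells of the 2 acute libraries, the only ones with at least 20 mural cells, held 9.12 and 77.8 CPM and so did not place that class in the order.

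Tgfb3, the third isoform, followed the same division between stroma and urothelium. Its levels were 48.4 and 40.5, 28.1 and 16.1, and 23.0 and 0 CPM in fibroblasts. The 0 came from chronic library 2, in which 3 UMIs would have been 36.1 CPM. In myofibroblasts they were 46.1 and 30.6, 31.5 and 24.9, and 40.3 and 26.3 CPM, and the ranges of the 2 mesenchymal classes overlapped. Cells of the mural class, with Pln, Des and Myh11 among the leading genes, held 63.8 and 69.6 CPM in the acute libraries, above the myofibroblasts and fibroblasts of both. Urothelial cells held 0.371 to 1.25 CPM and endothelial cells gave 1 UMI in 5 libraries.

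Of the receptors, Tgfbr1, the kinase that signals to Smads, had its highest mean among the named classes in myofibroblasts. Their levels were 126 and 74.5 CPM in the healthy, 154 and 60.4 CPM in the acute and 104 and 158 CPM in the chronic libraries. In fibroblasts they were 58.1 and 30.7, 61.6 and 34.9, and 37.6 and 24.1 CPM, lower than in the myofibroblasts of the same library every time. The 24.1 CPM of chronic library 2 lay under the level of 3 UMIs in that sum. The other classes ran from 48.8 CPM (mural cells, n = 2) down to 16.8 CPM ± 3.56 (SD, n = 3; NK and T cells), and each neighbouring pair in that order overlapped.

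Tgfbr2, which binds the ligand first, was measured in every class. Fibroblasts held 260 and 161, 214 and 112, and 141 and 217 CPM, and myofibroblasts 178 and 125, 146 and 99.4, and 74.8 and 147 CPM. Endothelial cells, in which loss of this receptor is known to disturb vessel growth, held 163 CPM in healthy library 1, 123 and 105 CPM in the acute and 180 and 147 CPM in the chronic libraries. These 3 classes overlapped in range, and myofibroblasts were above macrophages (87.7 CPM ± 20.6, SD, n = 6) in 6 of 6 libraries.

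Tgfbr3, the ligand-presenting co-receptor, had its highest means among the named classes in fibroblasts, endothelial cells and myofibroblasts. Its levels were 101 and 124, 140 and 92.4, and 107 and 108 CPM in fibroblasts, and 71.6 and 136, 64.7 and 55.7, and 57.6 and 78.9 CPM in myofibroblasts. Endothelial cells held 84.7 CPM ± 25.8 (SD, n = 5) and overlapped with both. Urothelial cells lay at 6.62 to 14.6 CPM and macrophages at 3.12 to 6.44 CPM, below every fibroblast and myofibroblast library. Mural cells of the 2 acute libraries lay between urothelial cells and myofibroblasts, at 41.0 to 54.7 CPM, and overlapped with neither.

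Ltbp4, which holds the latent ligand in the matrix of elastic tissue, was a mesenchymal gene in these data. Fibroblasts held 665 and 654 CPM in the healthy, 254 and 344 CPM in the acute and 267 and 313 CPM in the chronic libraries. Myofibroblasts held 413 and 631, 146 and 332, and 282 and 368 CPM. Urothelial cells lay at 21.9 to 42.2 CPM and macrophages at 17.02 to 31.99 CPM, and these overlapped. Endothelial cells were intermediate at 117 CPM ± 67.9 (SD, n = 5).

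Tgfbi, the matrix protein named for its induction by TGF-beta, had the widest spread between the mesenchymal classes. Myofibroblasts held 835 and 438 CPM in the healthy, 547 and 629 CPM in the acute and 363 and 417 CPM in the chronic libraries. Macrophages held 212 and 270, 247 and 220, and 259 and 272 CPM, so that the ranges of these classes did not overlap. In fibroblasts the levels were 138 and 68.0, 13.6 and 68.1, and 10.7 and 12.03 CPM, the last from 1 UMI. Fibroblasts stood below macrophages and myofibroblasts in every library, and urothelial cells (6.39 to 26.1 CPM) were at the end of the order.

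Smad7, the inhibitor of the type I receptor, overlapped between neighbours throughout the order of classes. Myofibroblasts held 69.3 and 33.3, 99.5 and 38.6, and 80.6 and 52.6 CPM. In fibroblasts the levels were 41.6 and 21.9, 118 and 24.4, and 45.9 and 36.1 CPM, acute library 1 lying above the other 5. Urothelial cells held 12.6 to 25.1 CPM and macrophages 12.8 to 18.8 CPM.

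**Figure D1:**
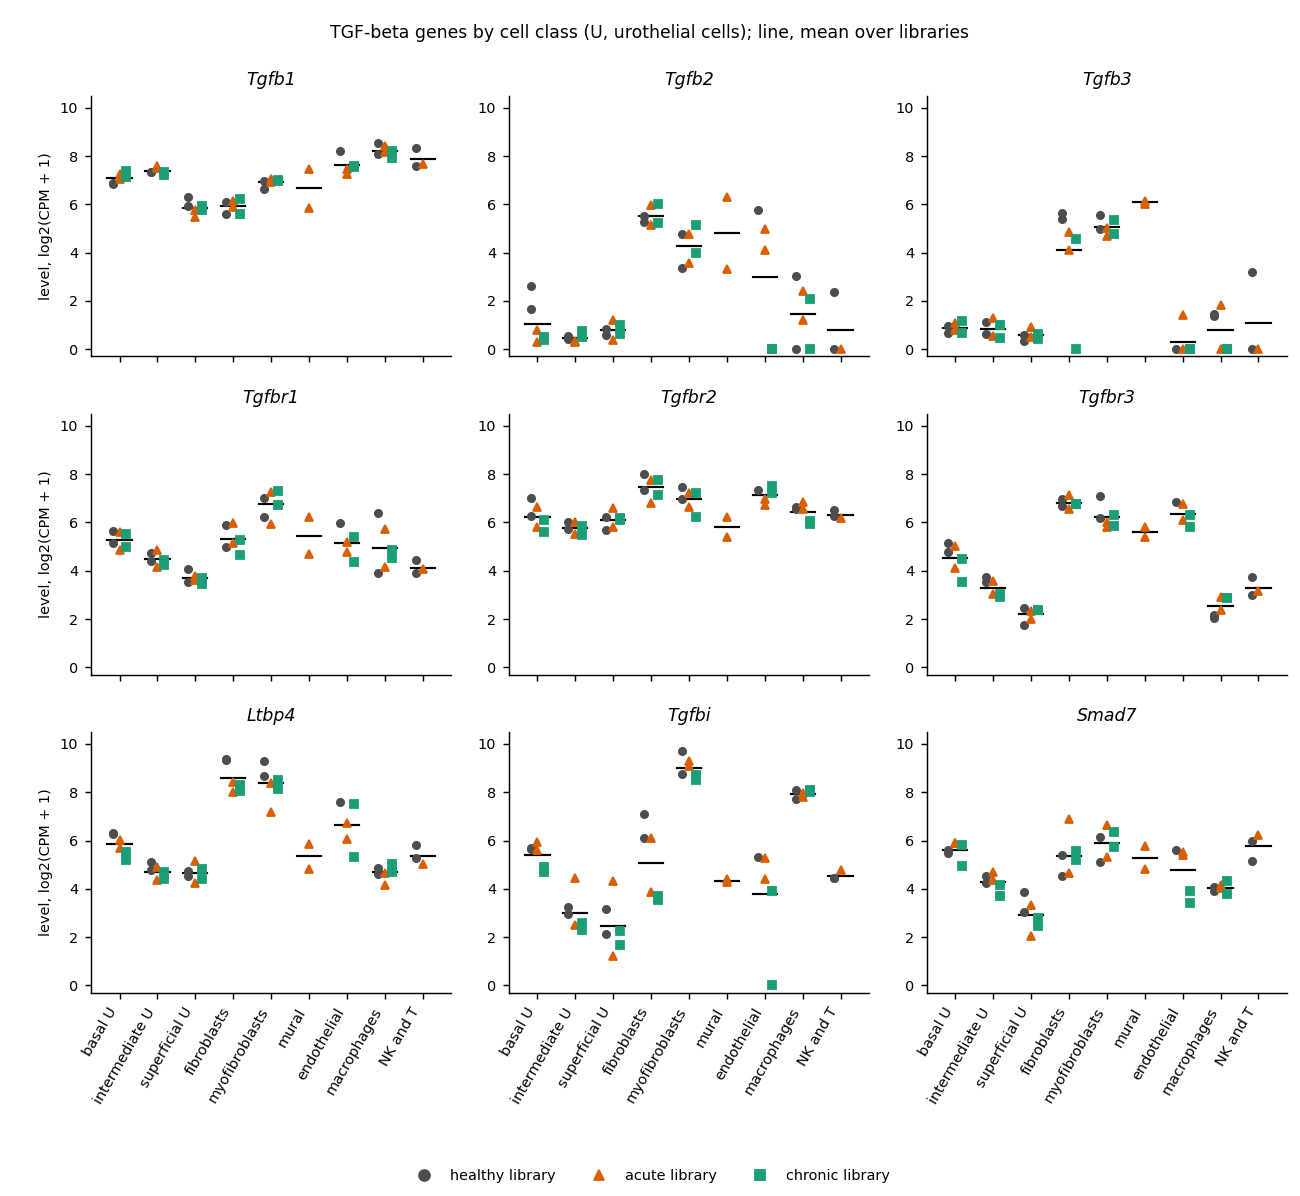
Levels of the 9 genes as log2(CPM + 1) on the vertical axis in 9 cell classes, 1 point per library with at least 20 cells of the class, with the line at the mean of the log2 values. Tgfb1 stood at 243 to 368 CPM in macrophages and at 43.7 to 77.2 CPM in superficial urothelial cells, whereas Tgfb2, Tgfb3, Tgfbr3 and Ltbp4 stood high in the mesenchymal classes and Tgfbi in myofibroblasts (363 to 835 CPM) and macrophages (212 to 272 CPM).

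To ask which side of the mucosa expresses the pathway, mesenchymal and urothelial cells of the same libraries were compared by the quasi-likelihood test of edgeR on the summed UMIs, with the library as a block and Benjamini-Hochberg adjustment over all genes. All 9 genes passed at an adjusted p of 0.05, against 70.3% of the 14054 genes tested, 8 of them higher (32.7% of all genes) and 1 lower (37.6%) in mesenchymal cells. The largest differences were those of Tgfb2 (log2 fold change 5.59 ± 0.27, SE, adjusted p = 1.5e-08) and Tgfb3 (5.31 ± 0.28, adjusted p = 2.6e-08). Tgfbi (4.12 ± 0.39), Ltbp4 (3.59 ± 0.15) and Tgfbr3 (3.22 ± 0.17) followed. Tgfbr1 (1.58 ± 0.19), Tgfbr2 (1.35 ± 0.10) and Smad7 (1.23 ± 0.25) were higher by less. Tgfb1 alone was lower in mesenchymal cells, by a log2 fold change of -0.62 ± 0.11 (adjusted p = 0.00050). The median log2 fold change was 3.22 over the 9 genes and -0.11 over all genes tested.

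The low urothelial levels of the stromal genes were set beside those of decorin (Dcn), a matrix gene of fibroblasts whose UMIs in urothelial cells can come from free RNA in the droplets. For Tgfb2 the ratio to Dcn UMIs was 0.00255 to 0.00948 in urothelial and 0.00163 to 0.00557 in mesenchymal cells, and for Tgfb3 it was 0.00197 to 0.0147 and 0.00150 to 0.00356. These ranges overlapped, with medians of 0.00739 and 0.00301 for Tgfb2 and of 0.00744 and 0.00283 for Tgfb3. Those of Col1a1, another matrix gene, overlapped too, with medians of 0.588 and 0.580. For Ltbp4 the ratio was 0.148 to 0.466 in urothelial against 0.0168 to 0.0613 in mesenchymal cells, and for Tgfbr3 it was 0.0351 to 0.225 against 0.00626 to 0.0148. Relative to Cxcl14, a myofibroblast marker, the ranges overlapped for Ltbp4 (0.181 to 3.95 in urothelial and 0.0415 to 0.586 in mesenchymal cells) and for Tgfbr3 (0.0398 to 1.28 and 0.00797 to 0.228). The medians were still higher in urothelial cells, at 1.96 against 0.120 for Ltbp4 and 0.627 against 0.0358 for Tgfbr3. The part of free RNA in these urothelial levels was not tested.

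Within the mesenchyme, myofibroblasts and fibroblasts differed in most of the 9 genes. In the 6 libraries 7 of 9 passed, against 21.3% of the 11208 genes tested, 4 higher (11.6% of all genes) and 3 lower (9.71%) in myofibroblasts. Tgfbi was higher by a log2 fold change of 3.51 ± 0.27 (SE, adjusted p = 7.5e-09), Tgfbr1 by 1.23 ± 0.14 (adjusted p = 1.8e-06) and Tgfb1 by 0.99 ± 0.14 (adjusted p = 2.1e-05), each in 6 of 6 libraries. Smad7 was higher by 0.53 ± 0.15 (adjusted p = 0.013), in 5 of 6 libraries, acute library 1 being the exception. Tgfb2 was lower in myofibroblasts (-1.23 ± 0.17, adjusted p = 1.7e-05), as were Tgfbr3 (-0.51 ± 0.14, adjusted p = 0.015) and Tgfbr2 (-0.42 ± 0.12, adjusted p = 0.013). For Tgfb3 the 95% interval of the log2 fold change ran from -0.16 to 0.60 and for Ltbp4 from -0.48 to 0.06, and neither passed.

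The 7 calls held without chronic library 2, whose fibroblasts stood apart, but the smaller of them rested on other single libraries. Smad7 no longer passed without healthy library 1 or acute library 2, Tgfbr3 without either acute library, and Tgfbr2 without healthy library 1. The sum of the 5 myofibroblast markers within fibroblasts was 2056 CPM in acute library 2 and 213 to 596 CPM in the other libraries, and its part in these differences was not tested. The 6 fibroblast markers summed to 249 to 1534 CPM within myofibroblasts. The myofibroblast class joined subclusters of 1993, 1401 and 853 cells before doublets were removed, and Acta2 was a leading gene of the one with 1401. In the same order, healthy library 2 gave them 219, 77 and 8 cells and acute library 2 gave 1114, 934 and 646. The part of this in the myofibroblast levels was not tested. A further 305 mesenchymal cells could not be named, and in the 4 libraries with at least 20 of them they held 508 CPM ± 212 (SD) of Ltbp4 and 116 CPM ± 37.7 of Tgfbr1.

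Other genes of the pathway also differed between the mesenchymal classes. Of 62 tested, 20 were higher and 7 lower in myofibroblasts, against 11.6% and 9.71% of all genes. Tenascin C (Tnc), a matrix protein and TGF-beta target, was higher by a log2 fold change of 6.11, the integrin subunit Itgb8, part of an activator of latent TGF-beta, by 3.63, and the collagen cross-linking enzyme Lox by 3.11. Periostin (Postn, -2.497), the metalloproteinase inhibitor Timp3 (-2.26) and the integrin subunit Itgb3 (-1.92) were lower. By role, 9 of the 17 genes of latency and activation were higher and 3 lower, as were 6 and 3 of the 16 targets, and none of the 8 genes of Smad transduction passed. Between mesenchymal and urothelial cells 41 of 65 were higher and 9 lower in the mesenchyme, against 32.7% and 37.6% of all genes. The higher genes were led by Tnc (6.48), the proteoglycan Bgn (6.22) and Lox (6.16). The lower genes were led by Itgb6 (-3.22), the epithelial integrin subunit that activates latent TGF-beta, followed by the activin receptor Acvr1b (-2.07) and the corepressor Tgif1 (-1.76).

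**Figure D2:**
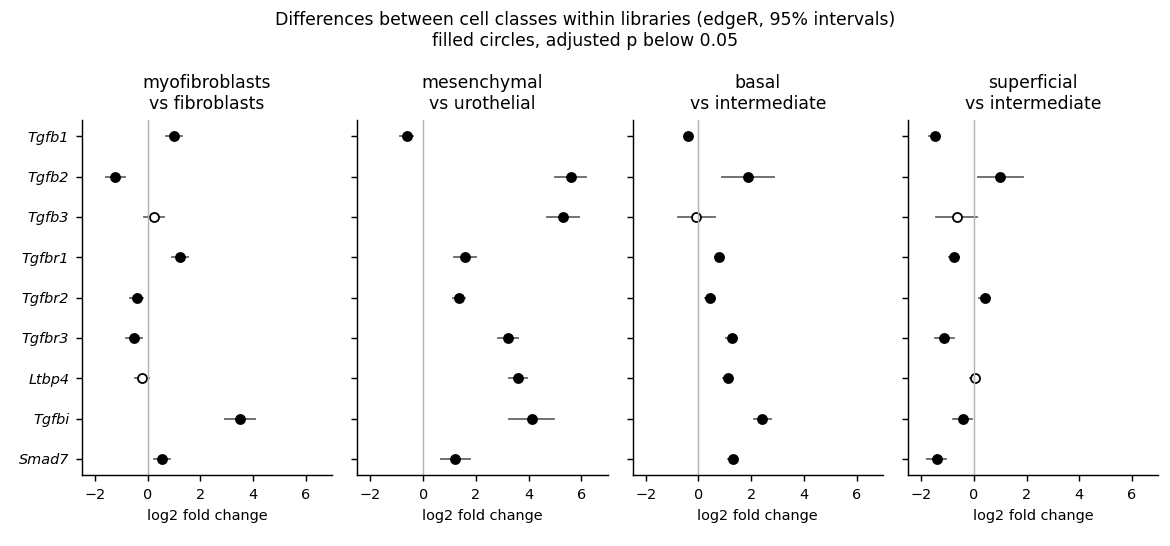
Log2 fold changes of the 9 genes (horizontal axis) between cell classes of the same libraries, as points with 95% intervals, filled where the adjusted p was under 0.05. Mesenchymal against urothelial cells showed 8 genes to the right of 0 and Tgfb1 to the left at -0.62, and basal against intermediate cells 7 genes to the right.

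The layers of the urothelium were then compared in the same way. Intermediate cells, the reference of both layer comparisons, were not named from markers but were the urothelial clusters left after cycling, superficial, basal and unnamed ones were set apart. In basal cells, the layer that rests on the stroma, 8 of 9 genes differed from intermediate cells, against 45.7% of the 12821 genes tested, 7 of them higher (23.4% of all genes) and 1 lower (22.3%). Tgfbi was higher by a log2 fold change of 2.43 ± 0.16 (SE, adjusted p = 5.0e-10), its levels being 50.2 and 49.8, 47.6 and 61.0, and 29.2 and 25.1 CPM in basal cells. Intermediate cells held 8.45 and 6.82, 4.66 and 20.6, and 3.93 and 5.06 CPM of it, so that no basal library overlapped with them. Smad7 (1.30 ± 0.08), Tgfbr3 (1.26 ± 0.10), Ltbp4 (1.11 ± 0.09), Tgfbr1 (0.77 ± 0.07) and Tgfbr2 (0.44 ± 0.08) were also higher in basal cells, with adjusted p from 1.3e-10 to 0.00025. Tgfb1 was lower there, by -0.38 ± 0.07 (adjusted p = 0.00025), in 5 of 6 libraries, chronic library 1 being the exception.

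Tgfb2 was higher in basal than in intermediate cells as well (1.88 ± 0.47, adjusted p = 0.0029), on few counts. Its basal UMIs numbered 22 and 15 in the healthy, 2 and 1 in the acute and 1 and 1 in the chronic libraries, that is 5.07 and 2.19 CPM in the healthy and at most 0.716 CPM in the injured ones. Intermediate cells held 0.450 and 0.345 CPM in the healthy, 0.262 and 0.234 CPM in the acute and 0.704 and 0.399 CPM in the chronic libraries. Basal cells were thus higher in 4 of 6 libraries and lower in acute library 2 and chronic library 1, and the healthy libraries held most of the basal UMIs. Tgfb3, with 20 UMIs in basal cells over all libraries, did not pass. With clusters drawn without integration, 3 of the 6 libraries had at least 20 basal cells and entered the fit, and the log2 fold change of Tgfb1 was then -0.16 and did not pass. Of the 6185 basal cells, 2886 stayed basal in those clusters and 3224 became intermediate, while 3020 intermediate cells became basal. Which cells were called basal thus depended on the integration.

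Superficial cells, the terminally differentiated umbrella cells that face the urine, differed from intermediate cells in 7 of 9 genes, against 51.5% of the 12865 genes tested, 2 of them higher (25.3% of all genes) and 5 lower (26.2%). Tgfb1 was lower there by a log2 fold change of -1.49 ± 0.10 (SE, adjusted p = 4.5e-09). It held 77.2 and 60.8, 43.7 and 53.4, and 52.8 and 60.4 CPM in superficial cells, below the 149 to 194 CPM of intermediate cells in every library. Smad7 (-1.41 ± 0.17), Tgfbr3 (-1.13 ± 0.17) and Tgfbr1 (-0.76 ± 0.09) were lower too, with adjusted p from 1.9e-06 to 3.0e-05. Tgfbr2 was higher in superficial cells (0.42 ± 0.10, adjusted p = 0.0021), at 50.2 to 96.6 CPM against 43.6 to 63.9 CPM.

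Along these layers the receptors thus parted, Tgfbr1 and Tgfbr3 standing highest in basal and lowest in superficial cells and Tgfbr2 lowest in intermediate cells. Tgfbi (-0.43, adjusted p = 0.048) and Tgfb2 (1.01, adjusted p = 0.045, 24 UMIs in superficial cells) passed narrowly in superficial cells and were lost in 7 of 12 and 5 of 8 alternatives. Ltbp4 and Tgfb3 did not pass.

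Of the other pathway genes, 25 of 60 were higher and 1 was lower in basal than in intermediate cells, against 23.4% and 22.3% of all genes. The corepressor Tgif2 (2.34), the transcription factor Snai2 (2.28) and the activin antagonist Fst (2.18) led the higher ones, and the cyclin-dependent kinase inhibitor Cdkn2b (-1.11) was the lower one. In superficial cells 24 of 59 were lower and 7 higher, against 26.2% and 25.3% of all genes. The lower ones were led by Fst (-2.81), the activin subunit Inhbb (-2.14) and Tgif2 (-1.91). Those higher were led by Nrros (1.49), which tethers latent TGF-beta, Fkbp1a (0.63), which binds Tgfbr1, and Itgb6 (0.57). Of the 8 genes of Smad transduction, 1 was higher in basal cells, and 1 was higher and 1 lower in superficial cells.

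Whether these genes differed after injury was asked in each class, acute and chronic libraries being compared with the same healthy libraries. In fibroblasts none of the 9 genes passed in either comparison, against 0.118% (acute) and 0.0636% (chronic) of the 11009 genes tested. Unadjusted p under 0.05 was reached by 3 of the 9 in each, beside 448 and 595 of all genes, and DESeq2 called 24 and 26 genes in all.

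Ltbp4 gave the same order of libraries after both injuries in fibroblasts. The acute (254 and 344 CPM) and chronic libraries (267 and 313 CPM) all lay below the healthy ones (665 and 654 CPM). Both injured libraries lay below both healthy ones in 2 of the 9 genes after acute and 3 after chronic injury, against 17.2% and 19.3% of all genes tested. The log2 fold change was -1.13 ± 0.32 (SE, 95% interval -1.83 to -0.44, edgeR adjusted p = 0.51) after acute and -1.30 ± 0.33 (-2.02 to -0.57, adjusted p = 0.42) after chronic injury. Tgfb3 had a similar order of libraries, with 48.4 and 40.5 CPM in the healthy, 28.1 and 16.1 CPM in the acute and 23.0 and 0 CPM in the chronic libraries. Its log2 fold changes were -1.06 ± 0.43 (adjusted p = 1.00) and -1.16 ± 0.49 (adjusted p = 0.89). Without chronic library 2, the chronic values were -1.33 for Ltbp4 and -0.98 for Tgfb3 (both adjusted p = 1.00). Without chronic library 1, Ltbp4 was at -1.28, and no fold was taken for Tgfb3, which had no UMI in the remaining chronic library. The fibroblast markers summed to 10504 and 9604 CPM in the healthy, 5949 and 5677 CPM in the acute and 7312 and 3093 CPM in the chronic libraries, and the part of this in the levels of Ltbp4 and Tgfb3 was not tested.

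Tgfbi in fibroblasts was lower in 3 of the 4 injured libraries, at 13.6 CPM in acute library 1 and 10.7 and 12.03 CPM in the chronic libraries, than in the healthy ones at 138 and 68.0 CPM. Acute library 2, at 68.1 CPM, was level with healthy library 2. The fibroblast class joined 3 subclusters that the libraries filled unequally. Before doublets were removed, healthy library 1 gave them 284, 425 and 152 cells, and healthy library 2 gave 542, 598 and 258. Acute library 1 gave 160, 136 and 34, and acute library 2 gave 361, 221 and 1107. Chronic library 1 gave 642, 416 and 163, and chronic library 2 gave 17, 4 and 3. The part of this in the fibroblast levels was not tested. The log2 fold change was -3.28 ± 0.77 (95% interval -4.97 to -1.59, adjusted p = 0.37) after chronic and -1.25 ± 0.57 (adjusted p = 1.00) after acute injury. Tgfbi passed after chronic injury with DESeq2 (adjusted p = 0.018) and without healthy library 2, acute library 1 or acute library 2, and after acute injury without acute library 2 (-2.91, adjusted p = 0.034). The acute value was -0.57 without acute library 1 and -0.66 without healthy library 1, and did not pass. Chronic library 2 gave 1 Tgfbi UMI, with a 95% counting interval of 0.305 to 67.1 CPM, and the log2 fold change was -3.29 (adjusted p = 1.00) without that library and -3.30 (adjusted p = 0.64) without chronic library 1.

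Acute library 2 was also the library whose fibroblasts held the most myofibroblast markers. Relative to Cxcl14, itself among those markers, Tgfbi UMIs in fibroblasts stood at 0.330 and 0.351 in the healthy, 0.133 and 0.0615 in the acute and 0.0629 and 0.0769 in the chronic libraries. The denominator was itself high in acute library 2, with 3774 Cxcl14 UMIs against 232 of Tgfbi, so the low ratio there is no measure of Tgfbi apart from the marker. The ratio in myofibroblasts was 0.138 and 0.0736, 0.0809 and 0.0605, and 0.0775 and 0.0830, with the healthy fibroblasts above that range. The fibroblast value of chronic library 2 is 1 Tgfbi UMI over 13 of Cxcl14, which does not place it.

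**Figure D3:**
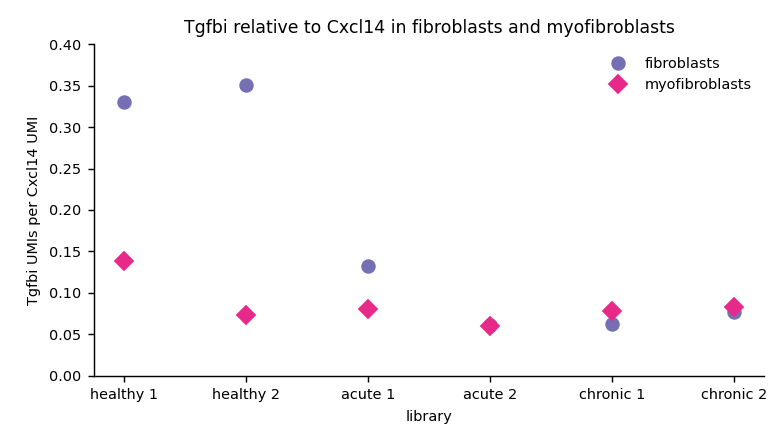
Tgfbi UMIs per Cxcl14 UMI (vertical axis) in fibroblasts and myofibroblasts of the 6 libraries, 1 point per class and library. The points of acute library 2 nearly coincide (0.0615 and 0.0605). The healthy fibroblasts stood at 0.330 and 0.351, above the acute libraries and chronic library 1 (0.0615 to 0.133) and above all myofibroblast points (0.0605 to 0.138), while the point of chronic library 2 rests on 1 Tgfbi UMI.

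In myofibroblasts none of the 9 genes passed after acute (0.0126% of the 7931 genes tested) or chronic injury (0 of them; 489 at an unadjusted p under 0.05, and 9 with DESeq2). Ltbp4 was again lower in both acute (146 and 332 CPM) and both chronic libraries (282 and 368 CPM) than in the healthy ones (413 and 631 CPM), with a log2 fold change of -1.07 ± 0.42 (SE, adjusted p = 1.00) after acute injury, which was -0.63 without acute library 1 and -1.82 without acute library 2. Tgfbi lay below both healthy libraries in the chronic ones (363 and 417 against 835 and 438 CPM) and between them in the acute ones. Tgfbr3 lay below both healthy libraries in the acute ones, at 64.7 and 55.7 against 71.6 and 136 CPM. Such an order held for 2 of the 9 genes after either injury, against 15.8% (acute) and 17.1% (chronic) of all genes tested. Tgfb1 lay at 98.5 to 131 CPM in all 6 libraries, with a 95% interval of the log2 fold change from -0.49 to 0.83 after acute and from -0.60 to 0.82 after chronic injury. These myofibroblast sums came from 909 and 300 cells in the healthy, 147 and 2620 in the acute and 72 and 85 in the chronic libraries.

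**Figure D4:**
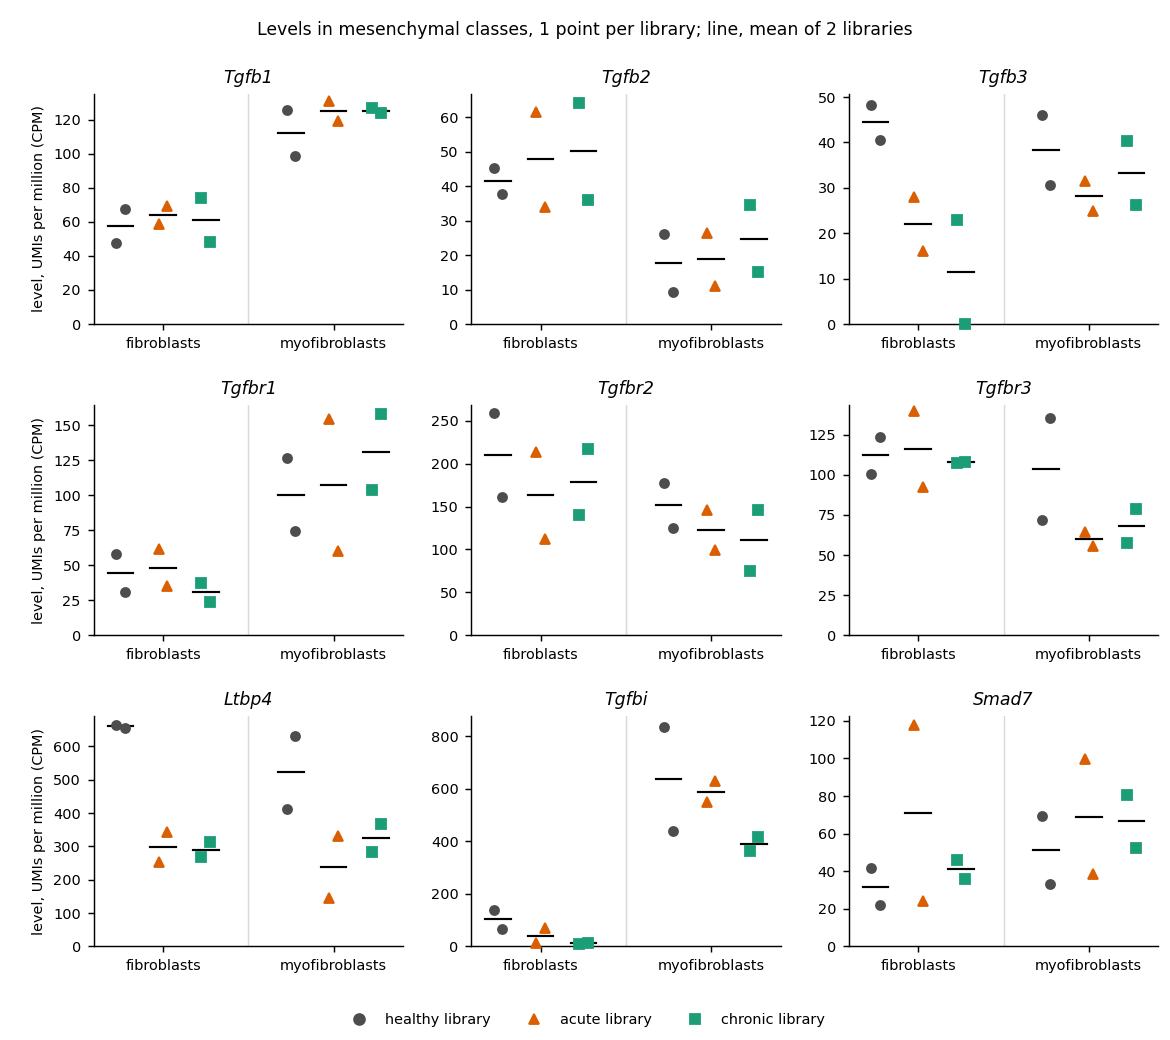
Levels of the 9 genes in CPM (vertical axes from 0) in fibroblasts and myofibroblasts, 1 point per library grouped as healthy, acute and chronic, with the line at the mean of 2 libraries. Ltbp4 stood at 654 and 665 CPM in healthy fibroblasts and at 254 to 344 CPM in the 4 injured libraries.

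The Tgfbi change itself was compared between the mesenchymal classes by the class by condition term of the same model. Its change from healthy was more negative in fibroblasts by 2.36 ± 0.53 on the log2 scale after chronic (SE, edgeR adjusted p = 0.16) and by 1.31 ± 0.39 after acute injury (edgeR adjusted p = 0.62). The acute value was 0.59 without acute library 1 and 2.72 without acute library 2. Neither passed over all genes, where 0.0535% and 0.00892% of 11208 did. Alternatives in which it passed were 5 of 11 for chronic and 2 of 11 for acute injury. Of the other 8 genes, Tgfbr3 after acute injury had an unadjusted p under 0.05 and none passed the adjusted threshold.

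In urothelial cells none of the 9 genes passed, against 0.00724% of the 13806 genes tested after acute and 0% after chronic injury. DESeq2 called 294 and 145 genes, none of these 9, and 945 and 1061 had an unadjusted p under 0.05. After chronic injury all 9 fitted changes were below 0, with a median of -0.54 against 0.0016 over all genes. In 6 of 9 genes both chronic libraries lay below both healthy ones, against 20.4% of all genes tested. After acute injury this held for Tgfb1, Tgfb2 and Tgfbr3, against 16.3% of all genes, and no gene of the 9 lay above both healthy libraries in either comparison. These pooled sums held 102 and 35 cycling cells in the healthy, 1103 and 421 in the acute and 291 and 230 in the chronic libraries. Superficial cells were 6.75% and 3.76%, 12.3% and 14.5%, and 10.4% and 12.8% of urothelial cells. Mean Tgfb1 levels were 84.0 CPM in cycling, 58.1 in superficial and 168 in intermediate cells. The part of these shares in the pooled levels was not tested. For Tgfb1 the levels were also read by layer, without a test between conditions. Basal cells held 119 and 113 CPM in the healthy, 153 and 131 CPM in the acute and 164 and 138 CPM in the chronic libraries. Intermediate cells held 163.2 and 159.2 CPM of it in the healthy, 193.5 and 181.8 CPM in the acute and 149.3 and 158.8 CPM in the chronic libraries. Superficial cells held 77.2 and 60.8 CPM in the healthy, 43.7 and 53.4 CPM in the acute and 52.8 and 60.4 CPM in the chronic libraries. The injured libraries thus lay above the healthy ones in basal cells and, after acute injury, in intermediate cells, and the acute ones below them in superficial cells. The higher chronic values in intermediate and superficial cells, 158.8 and 60.4 CPM, nearly met the lower healthy ones, 159.2 and 60.8 CPM. The share of all genes with such orders within a layer was not taken, so they do not establish a direction by layer.

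Tgfbr3 was the urothelial gene with the lowest p. It held 14.6 and 13.4 CPM in the healthy, 10.8 and 7.72 CPM in the acute and 6.62 and 8.26 CPM in the chronic libraries, the injured libraries lying below the healthy ones. The log2 fold change was -0.59 ± 0.24 (SE, adjusted p = 0.69) after acute and -0.89 ± 0.24 (95% interval -1.45 to -0.33, adjusted p = 0.54) after chronic injury. In basal cells its levels were 34.3 and 26.4, 31.1 and 16.5, and 10.7 and 21.3 CPM.

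Tgfbi and Smad7 also had unadjusted p under 0.05 in the chronic urothelium. Tgfbi held 14.8 and 15.8 CPM in the healthy, 10.3 and 26.1 CPM in the acute and 6.39 and 6.88 CPM in the chronic libraries (chronic log2 fold change -1.18 ± 0.44, adjusted p = 0.60). Smad7 held 25.1 and 22.7, 24.8 and 21.5, and 12.6 and 18.3 CPM (chronic -0.61 ± 0.22, adjusted p = 0.59). Acute library 2, the highest for Tgfbi, held 385 CPM of the 5 myofibroblast markers in urothelial cells against 18.6 to 70.0 CPM in the other libraries, and their part in its Tgfbi level was not tested. Basal cells were 20.1% and 27.7% of the urothelial cells in the healthy, 12.1% and 16.8% in the acute and 13.5% and 13.9% in the chronic libraries. Clusters drawn without integration put 2215 and 3902 cells in the basal class in the healthy, 1 and 72 in the acute and 6 and 0 in the chronic libraries, so these shares depend on the integration. Tgfbi, Smad7, Tgfbr3 and Ltbp4 were higher in basal than in intermediate cells. Within basal cells Ltbp4 held 79.0 and 77.0 CPM in the healthy and 44.4 and 35.5 CPM in the chronic libraries, and Tgfbi 50.2 and 49.8 against 29.2 and 25.1 CPM. Within intermediate cells Tgfbr3 held 12.5 and 10.53 CPM in the healthy and 6.54 and 7.12 CPM in the chronic libraries. The chronic levels were the lower in these chosen cases. No layer was tested between conditions, and the share of all genes with such an order within a layer was not taken. The part of the layer shares in the pooled levels was not tested. Smad7 in basal cells overlapped between healthy (47.9 and 43.9 CPM) and chronic libraries (29.5 and 56.0 CPM), and its acute libraries (59.4 and 59.3 CPM) lay above the healthy ones. Tgfbr3 in superficial cells overlapped as well, at 4.49 and 2.41 CPM in the healthy and 4.13 and 4.17 CPM in the chronic libraries.

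**Figure D5:**
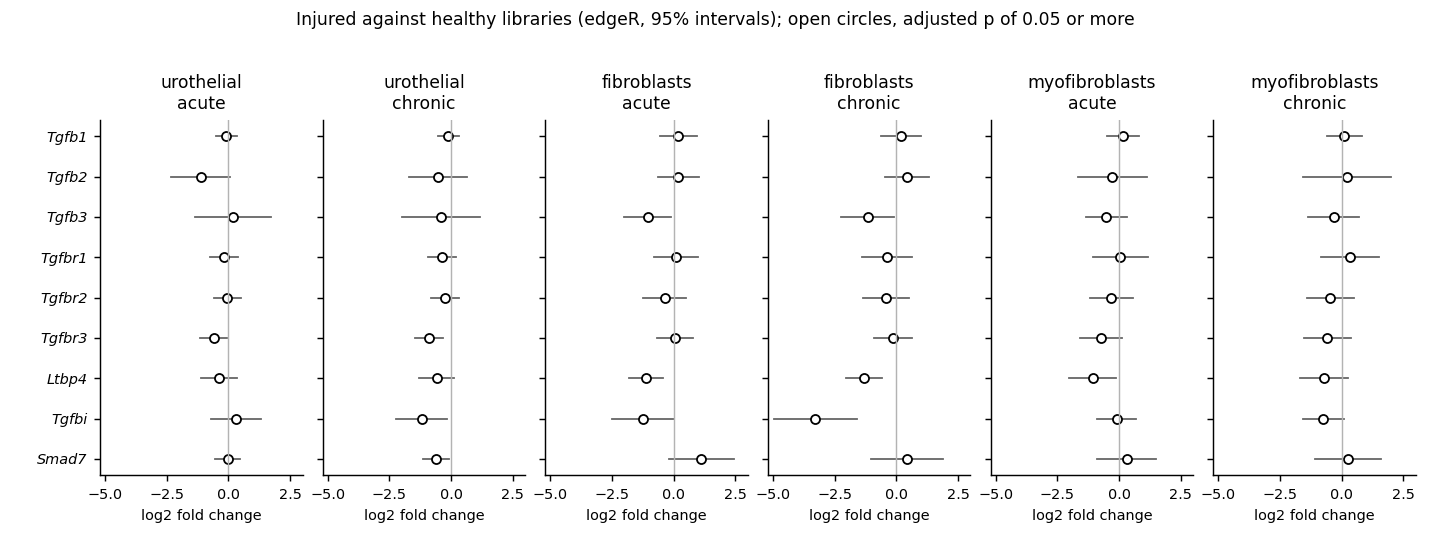
Log2 fold changes of the 9 genes (horizontal axis) after acute and chronic injury against healthy in urothelial cells, fibroblasts and myofibroblasts, as points with 95% intervals. No point is filled, since none had an adjusted p under 0.05, and the lowest was that of Tgfbi in chronic fibroblasts at -3.28.

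In macrophages 5 of the 9 genes had enough counts to be tested, and none passed, as did no gene of the 5817 tested (0%; 152 and 299 genes at an unadjusted p under 0.05 and 3 and 4 with DESeq2). Tgfb1 (243 to 368 CPM) and Tgfbi (212 to 272 CPM) overlapped between conditions. Tgfbr2 held 98.3 and 93.6 CPM in the healthy, 115 and 92.7 CPM in the acute and 60.8 and 65.7 CPM in the chronic libraries, 1 of 5 genes with both chronic libraries below both healthy ones, against 12.1% of all genes.

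In endothelial cells, where healthy library 2 was dropped from the fit for its 15 cells, 6 of the 9 genes were tested and none passed, against 0.0739% after acute and 0.148% (0.0554% higher and 0.0924% lower) after chronic injury. With 1 healthy library of 51 cells, Tgfb1 stood at 293 CPM there, at 174 and 153 CPM in the acute and at 194 and 186 CPM in the chronic libraries. Tgfb2 numbered 11 UMIs in the healthy, 6 and 10 in the acute and 0 and 0 in the chronic libraries, of which the chronic ones held 72130 and 102353 UMIs in all. No fold was taken, because 3 UMIs in chronic library 1 would have been 41.6 CPM against 52.9 CPM in the healthy library.

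Of the other pathway genes, none passed after acute or chronic injury in urothelial cells (61 tested), fibroblasts (60), myofibroblasts (51), macrophages (31) or endothelial cells (34). Their median log2 fold changes lay between -0.38 in chronic endothelial cells and 0.15 in acute macrophages. The condition comparisons set 2 libraries against 2, or 2 against 1 healthy library in endothelial cells, so an absent call does not show that a gene stayed the same.

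Last, genes whose levels followed each of the 9 closely were taken over 46 sums of 9 classes in 6 libraries, by the Pearson correlation of log2(CPM + 1) among 9028 genes. The sums of a library share its depth and its free RNA, so these values describe the data set. Tgfb3 was followed most closely, by Pde1a (r = 0.926), Smarcd3 (0.896) and Efemp2 (0.879), then Tgfbr3 by Ptrf (0.926), Ehd2 (0.918) and Igfbp7 (0.907), Ltbp4 by Csrp2 (0.902) and Rab34 (0.900), and Tgfb2 by Csf1 (0.887), Evi5 and Ddah2 (both 0.875). The closest correlations of the other 5 genes were lower. Tgfbr2 was followed by Heg1 (0.817), Fam198b (0.760) and Mob3c (0.758), Tgfbi by Fam105a (0.814), Adam19 (0.799) and Hpse (0.792), and Tgfbr1 by Ttc28 (0.798) and Zbtb20 (0.780). Tgfb1 was followed by Fem1c (0.782), Fnbp1 (0.780) and Git2 (0.767), and Smad7 by Tiparp (0.776), Vopp1 (0.765) and Klf4 (0.762).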

How the data were processed

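Droplet-based single-cell RNA sequencing (10x) was done on 6 libraries of dissociated mouse bladder mucosa, 2 per condition. The authors deposited raw UMI counts per gene and cell. The submitters' processing notes name Cell Ranger and mm10. Libraries were handled in several batches per the study's methods, and which library was in which batch is not given in the sources used here, so batch and condition cannot be told apart. The last line of the healthy library 1 table was incomplete. The 9 genes and the pathway and marker lists were chosen with earlier results of these data known. Of 14450 genes found in every table, 95 mitochondrial and ribosomal genes were removed. Barcodes needed more than 500 detected genes and less than 10% of UMIs from mitochondria, and Scrublet doublets were called at an expected 0.8% per 1000 cells and removed (4.28% to 11.1% of cells per library).

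Libraries were integrated in Seurat 5.3.0 with sctransform 0.4.2 on 3000 features, 74 pathway genes kept out, and clustered by Leiden (scanpy 1.11.5, 30 components, 20 neighbours, resolution 0.8, and 0.6 within mesenchyme). A main cluster was named from markers if at least 3 were detected in 10% or more of its cells. Urothelial subclusters were called cycling, superficial or basal from their mean marker z-score (above 1, 0.7 and 0.7), and the remaining ones, less 1 left unnamed, intermediate. A doublet cluster and the unnamed clusters stayed out of the tests. UMIs were summed per class and library with at least 20 cells. Levels are CPM of these sums. The sums were tested with edgeR 4.0.16 (quasi-likelihood, TMM factors, filterByExpr, R 4.3.3) with Benjamini-Hochberg adjustment over all genes and a threshold of 0.05, with the library as a block between classes. DESeq2 1.42.0, no low-count filter, doublets kept, a stricter cell filter (1000 genes, 5%), no integration, another block and leaving out each library were the alternatives. The scripts were tested on simulated data. Limits from a count of 0 use 3 counts, and these and the 95% Poisson intervals cover counting error only. All 9 genes are named in the text, with up to 3 pathway genes per direction and class comparison by size of change among those that passed, and the 3 genes of most similar pattern to each of the 9, of which some are not reported here.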

Additional observations from a re-analysis of the deposited data

How the results depend on the processing

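Over the 46 results on single genes with an unadjusted p under 0.05, 503 of 538 alternative values kept their direction and their side of the threshold, 23 lost the call, 12 gained it and 0 changed sign. With every tested value of the 9 genes included, 0 to 10 alternative values per comparison changed sign, the most in acute fibroblasts and acute myofibroblasts (10 of 108 each) and chronic macrophages (10 of 67). Counts of genes called moved more, and the cause was not tested.

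With DESeq2, genes called went from 1 to 294 (acute) and from 0 to 145 (chronic) in urothelial cells, from 13 to 24 and 7 to 26 in fibroblasts (1 of the 9 genes in chronic ones), from 1 to 8 and 0 to 9 in myofibroblasts, from 0 to 3 and 0 to 4 in macrophages, from 4 to 9 and 8 to 56 in endothelial cells, and from 6 to 2 for the chronic class by condition term. Without the low-count filter, 16 were called in chronic fibroblasts, 89 and 77 in myofibroblasts, 38 and 40 in macrophages, 20 and 132 in endothelial cells, and 41 and 33 for the acute and chronic terms (1 of the 9 in each). With doublets kept, 2 were called in acute urothelial cells, 11 in chronic fibroblasts and 23 in chronic endothelial cells. The stricter cell filter gave 0 in acute urothelial and 13 in chronic endothelial cells. Without integration, 15 were called in chronic endothelial cells, 3344 (main 5856) between basal and intermediate cells in a fit of 3 libraries in place of 6, and 3 and 2 for the acute and chronic terms.

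Healthy and acute libraries of the same number deviated together in fibroblasts (correlation 0.32), myofibroblasts (0.41) and urothelial cells (0.15), and less in macrophages (0.053), whereas pairs with chronic libraries had correlations of -0.30 to -0.027. Not every pair was above 0.1 and the labels tie the numbers to no animal or batch, so the numbers were not taken to pair the libraries. With the replicate block, 0 genes were called in acute urothelial cells, 20 and 16 in fibroblasts, 3 in acute myofibroblasts and 18 in chronic endothelial cells, none of them of the 9. Without the library block, 1002 (main 2391) were called between myofibroblasts and fibroblasts with 4 of the 9, 1792 between basal and intermediate cells with 5 of the 9, and 3284 (main 6631) between superficial and intermediate cells.

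Leaving out each library gave 0 to 99 (acute) and 0 to 0 (chronic) calls in urothelial cells, 2 to 140 and 2 to 53 in fibroblasts (0 to 1 of the 9 in both), 0 to 28 and 0 to 3 in myofibroblasts, 0 to 14 and 0 to 20 in macrophages, 4 to 23 and 8 to 140 in endothelial cells, and 0 to 56 and 0 to 60 for the acute and chronic terms (0 to 1 of the 9 in both). Between classes it gave 1637 to 2398 calls (5 to 7 of the 9) for myofibroblasts against fibroblasts, 9134 to 9815 (9 of the 9) for mesenchymal against urothelial cells, 5114 to 5495 (7 to 8) for basal and 5871 to 6770 (5 to 6) for superficial against intermediate cells. Single-library omission moved the log2 fold change of Tgfbi between -0.57 and -2.91 in acute fibroblasts and between -0.26 and -0.65 in superficial cells, that of Tgfb3 in acute fibroblasts between -0.66 and -1.43, and that of Smad7 in chronic urothelium between -0.40 and -0.86. The endothelial fit had no healthy library 2, so its low ends of 4 and 8 repeat the main counts, the omissions of acute and chronic libraries gave 6 to 23 and 9 to 140, and the fit without healthy library 1 could not be made. Levels from 3 UMIs or fewer in a class sum, as for Tgfb2, Tgfb3, Tgfbr1, Smad7 and Tgfbi in the fibroblasts of chronic library 2, limit what these depths can show.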
